A study of Homo sapiens with 3 samples.

Results

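The genes described here form the CDP-diacylglycerol branch of phospholipid synthesis, which leads to phosphatidylinositol and to cardiolipin, in a pooled CRISPR knockout screen of metabolic genes. They were chosen by their place in the pathway and not by a measured value. Of 8 symbols searched, 5 genes were in the tables, CDS1, CDS2, CDIPT, PGS1 and CRLS1, out of 2978 genes targeted, with 50 of the 29698 guides against genes. PTPMT1, TAMM41 and TAZ were not analysed here.

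The screen was done in MIA PaCa-2, an established human pancreatic ductal adenocarcinoma cell line, to ask which metabolic genes matter when PIKfyve is inhibited. PIKfyve phosphorylates phosphatidylinositol 3-phosphate, and apilimod inhibits it. Cells carrying the lentiviral guide library were selected with puromycin and passaged for 14 days in apilimod (200 nM on the labels) or in DMSO, the vehicle. The initial population was untreated (0 days), and each of the 3 groups was 1 library. The concentration is that of the labels. The study's methods give another one for its low-dose arm, and the files do not settle which was used. What was counted was guide sequence in genomic DNA, so cell identity could not be read from marker genes, and a count stood for the cells carrying a guide and not for a level of RNA.

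Phosphatidic acid is the branch point of glycerophospholipid synthesis. CDS1 and CDS2 join it to CTP in the endoplasmic reticulum to give CDP-diacylglycerol, and CDIPT joins that to inositol to give phosphatidylinositol, the parent of every phosphoinositide. In mitochondria, CDP-diacylglycerol is made by TAMM41, PGS1 turns it into phosphatidylglycerophosphate, PTPMT1 removes a phosphate, and CRLS1 condenses the product with a further CDP-diacylglycerol into cardiolipin. Cardiolipin is the signature lipid of the inner mitochondrial membrane, where it binds the respiratory complexes, and tafazzin, the product of TAZ, remodels its acyl chains.

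Abundance is given as raw counts or as CPM, counts per 1000000 counts of the library. The libraries held 25599416 counts in apilimod, 26276517 in DMSO and 24695476 in the initial population, and the median guide had 655, 663 and 651 counts in the same order. A guide was scored where it had at least 100 counts in the initial population, and its change is the log2 of its share of the library (count + 1) over its share in the initial population. A gene score is the mean over guides, given with the SD over guides. A gene was called lower or higher where an exact two-sided rank-sum test of its guides against 487 intergenic control guides gave a Benjamini-Hochberg adjusted p under 0.05 over the 2969 genes scored. With 1 library per group, these tests compare libraries and not conditions, and the guides of a gene are not replicates of a condition. The control guides had a median change of 0.22 in apilimod (central 95% of guides, -0.85 to 2.41) and of 0.14 in DMSO (-0.78 to 0.85), while the median gene score was -0.04 in apilimod and -0.03 in DMSO. The 20 control guides with 100 to under 200 initial counts had a median change of 1.91 in apilimod and -0.06 in DMSO, against 0.20 and -0.02 for the 2209 guides against genes in that range. Without the control guides under 200 initial counts, each gene of the branch kept the same call in every comparison.

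Guides against 4 of the 5 genes, CDS2, CDIPT, PGS1 and CRLS1, were depleted in both 14-day libraries, and guides against CDS1 were not. In apilimod, 4 of 5 genes were called lower and 0 higher, where 29.0% of all genes tested were lower and 0.236% higher. In DMSO, 4 of 5 were lower and 0 higher, where 18.9% of all genes were lower and 0.842% higher. The median score of the 5 genes was -1.14 in apilimod and -1.20 in DMSO. Of the 39 scored guides against CDS2, CDIPT, PGS1 and CRLS1, 38 in apilimod and 37 in DMSO were under the median of the control guides, 37 of them in both. The median over all guides against genes was -0.03 in apilimod and 0.006 in DMSO, itself under the control median in each library. The share of all guides under the control median was not counted. CDIPT was the most depleted of the 5, at rank 24 of 2969 from the lowest score in apilimod and rank 5 in DMSO. These are ranks of means that include CDIPT guides at 0 counts. Its median over guides, -1.90 in apilimod and -1.81 in DMSO, was also the lowest of the 5. No gene of the branch was called between apilimod and DMSO.

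**Figure D1:**
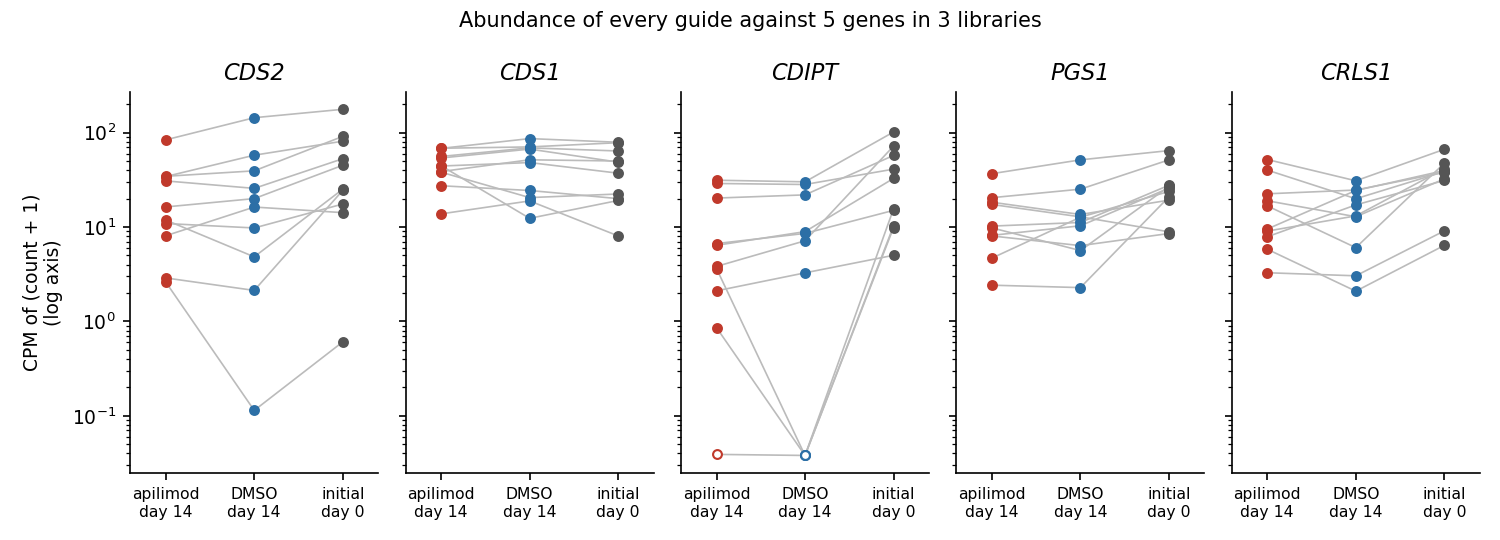
Counts of every guide, each with 1 added, as CPM (log axis), in the apilimod, DMSO and initial libraries. Grey lines join the same guide, open circles are counts of 0, and 3 CDIPT guides were at 0 in DMSO, while no CDS1 guide was under 64.7% of its initial share in either 14-day library.

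CDS2, one of the pair of CDP-diacylglycerol synthases, scored -1.29 ± 0.72 in apilimod and -1.20 ± 1.13 in DMSO (SD over 9 guides; exact rank-sum test, adjusted p = 3.91e-10 in apilimod and 1.41e-05 in DMSO). The most depleted guide, guide 1, had 73 counts in apilimod and 55 in DMSO, against 603 in the initial population. Guide 2 had 303 counts in apilimod and 126 in DMSO, against 621. Guide 7 had 417 in apilimod and 525 in DMSO, against 1113. The most abundant guide, guide 10, had 2146 counts in apilimod and 3782 in DMSO, against 4363 in the initial population. All 9 scored guides were below the control median in apilimod, where their changes ran from -3.08 to -0.69, and 8 of 9 in DMSO, where they ran from -3.52 to 0.20. The exception in DMSO was guide 4, with 206 counts in apilimod and 427 in DMSO, against 350 in the initial population. Guide 8 was not scored, since it began at 14 counts, and it had 66 counts in apilimod and 2 in DMSO. Over all 10 guides, CDS2 summed to 236 CPM in apilimod (95% exact binomial interval 230 to 242), 320 in DMSO (313 to 326) and 529 in the initial population (520 to 538), intervals that cover counting error only, as all those given here do. Guide 10 weighed most in these sums, with 2146 of the 6035 counts in apilimod and 3782 of the 8396 in DMSO.

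CDS1 carries out the same reaction as CDS2. It scored 0.26 ± 0.53 in apilimod and 0.17 ± 0.48 in DMSO (SD over 10 guides; exact rank-sum test, adjusted p = 0.900 and 0.989), and it was not called. Guide 7, the lowest in apilimod, had 990 counts in apilimod and 1354 in DMSO, against 1236 in the initial population. Guide 3, the highest in apilimod and the lowest in DMSO, had 1141 counts in apilimod and 324 in DMSO, against 471. Guide 6 had 352 counts in apilimod and 496 in DMSO, against 198. In apilimod, 5 of the 10 guides were below the control median and 5 above, and in DMSO 6 were below and 4 above. The scored guides of the 2 synthases did not overlap in apilimod, where the lowest CDS1 guide was at -0.37 and the highest CDS2 guide at -0.69. This leaves out CDS2 guide 8, which was not scored and had 66 counts in apilimod against 14 initially. How often the guides of other gene pairs do not overlap was not counted. In DMSO the scored guides of CDS1 and CDS2 overlapped, with the lowest CDS1 guide at -0.63 and the highest CDS2 guide at 0.20. CDS1 summed to 453 CPM in apilimod, 469 in DMSO and 426 in the initial population. The difference between the 2 genes was not tested on its own.

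CDIPT, the phosphatidylinositol synthase, scored -2.64 ± 2.19 in apilimod and -3.51 ± 3.38 in DMSO (SD over 10 guides; exact rank-sum test, adjusted p = 2.23e-12 and 7.85e-13). Each of the 10 guides was below the control median in each library, from -7.98 to -0.50 in apilimod and from -8.68 to -0.54 in DMSO. The guides fell into widely different degrees of loss. Guide 3 had 0 counts in apilimod and 0 in DMSO, against 243 in the initial population. Guide 2 had 92 counts in apilimod and 0 in DMSO, against 384. Guide 4 had 21 counts in apilimod and 0 in DMSO, against 253. At a floor of 3 counts per library, guide 3 was at least 84.0-fold lower in apilimod than initially, and in DMSO guides 2, 3 and 4 were at least 136-fold, 86.2-fold and 89.7-fold lower. Guide 1 came next in DMSO, with 97 counts in apilimod and 187 in DMSO, against 1779 in the initial population. In apilimod only guide 3 was more depleted than guide 1. Guide 6 had 163 counts in apilimod and 234 in DMSO, against 808. Guide 5 had 801 in apilimod and 791 in DMSO, against 2508. In these the 14-day libraries were both well under the initial one. Guide 8 had 518 counts in apilimod and 575 in DMSO, against 1416. Guide 7 had 170 in apilimod and 224 in DMSO, against 370. Guide 10 had 53 in apilimod and 85 in DMSO, against 123, and guide 9, the least depleted, had 740 and 741 against 1013.

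The size of the CDIPT score rested on the guides at 0 and its call did not. With counts of 0 set to 3 the score was -2.44 in apilimod and -2.91 in DMSO, and without guides 2, 3 and 4 it was -1.82 in apilimod and -1.48 in DMSO (7 guides; exact rank-sum test, adjusted p = 1.74e-08 and 1.67e-08). The median over the 10 guides was -1.90 in apilimod and -1.81 in DMSO. CDIPT summed to 2655 counts in apilimod, 2837 in DMSO and 8897 in the initial population, which is 0.288 of its initial share in apilimod and 0.300 in DMSO.

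**Figure D2:**
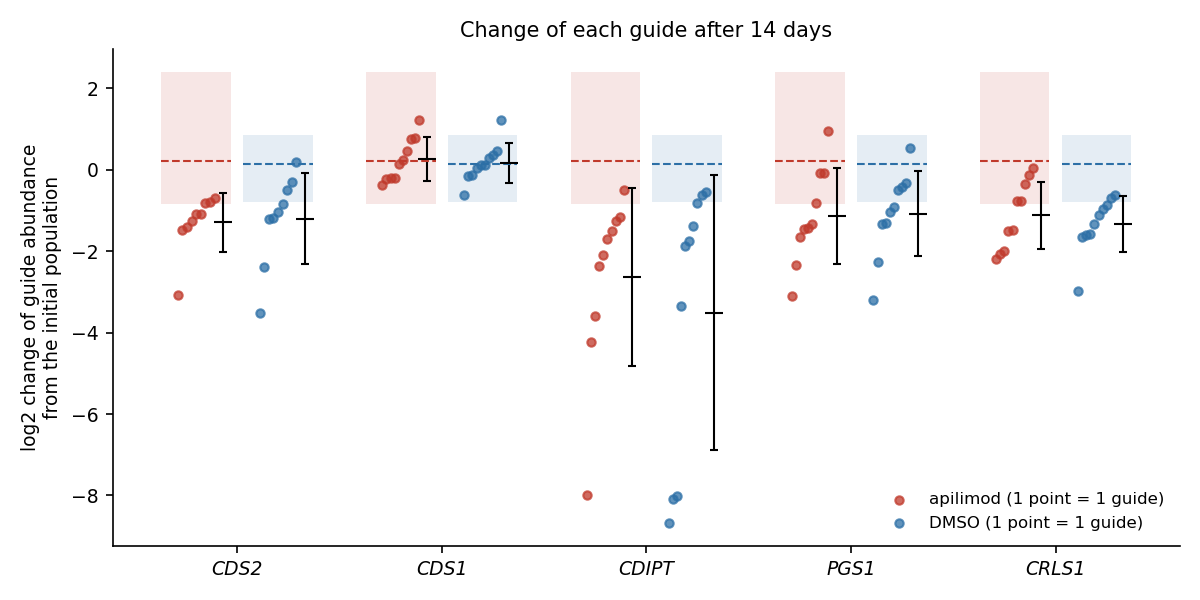
Change of each scored guide (log2, y axis) from the initial population in apilimod (red, left of each pair) and DMSO (blue, right), by gene. Black bars are the mean and SD over guides, the dashed line and shaded box are the median and central 95% of the 487 control guides, and CDIPT, at -2.64 and -3.51, lies lowest.

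PGS1, which makes phosphatidylglycerophosphate and so commits CDP-diacylglycerol to cardiolipin, scored -1.14 ± 1.18 in apilimod and -1.08 ± 1.05 in DMSO (SD over 10 guides; exact rank-sum test, adjusted p = 0.000271 and 3.26e-05). Guide 10 had 61 counts in apilimod and 59 in DMSO, against 515 in the initial population, and it was the most depleted guide in both libraries. Guide 7 had 250 counts in apilimod and 147 in DMSO, against 664. Guide 3 had 119 counts in apilimod and 333 in DMSO, against 588. In each library 9 of the 10 guides were below the control median. Guide 2 went the other way in both, with 443 counts in apilimod and 336 in DMSO, against 219. Guides 6 and 8 changed little in apilimod, where they were at -0.09 and -0.07, and were at -0.43 and -0.50 in DMSO. The 3 guides with under 500 initial counts averaged 0.27 in apilimod and -0.14 in DMSO, against -1.74 and -1.48 for the 7 guides with at least 500.

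CRLS1, the cardiolipin synthase, scored -1.12 ± 0.83 in apilimod and -1.34 ± 0.69 in DMSO (SD over 10 guides; exact rank-sum test, adjusted p = 1.10e-06 and 7.85e-13). All 10 guides were below the control median in both libraries, from -2.19 to 0.05 in apilimod and from -2.97 to -0.62 in DMSO. Guide 8, the lowest in apilimod, had 231 counts in apilimod and 344 in DMSO, against 1023 in the initial population. Guide 6, the lowest in DMSO, had 428 counts in apilimod and 158 in DMSO, against 1172. Guide 10, the highest in apilimod, had 1026 counts in apilimod and 523 in DMSO, against 955. The guides that were lowest thus differed between the libraries, unlike those of PGS1 and CDS2. CRLS1 summed to 185 CPM in apilimod (180 to 191), 154 in DMSO (149 to 159) and 351 in the initial population (343 to 358).

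In the annotation of the human genome (hg38, GENCODE v44), CDS2 at chr20:5126879-5197887 and CRLS1 at chr20:6006093-6040053 lie on the same chromosome, both on the plus strand. CDS1 lies at chr4:84583127-84651334 and PGS1 at chr17:78378649-78425114, on the plus strand, and CDIPT at chr16:29858357-29863414, on the minus strand. The count tables name each guide by gene and number, without a position, so the exon that each guide cuts is not given here.

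Among all genes, the 3 nearest to CDIPT in the plane of the apilimod and DMSO scores were DHODH, MVD and SCD, at Euclidean distances of 0.35, 0.56 and 0.60 log2 units. DHODH, of pyrimidine synthesis, scored -2.34 in apilimod and -3.69 in DMSO, MVD, of the mevalonate pathway, -2.92 and -3.02, and SCD, the stearoyl-CoA desaturase, -3.15 and -3.82. The nearest to CDS2 were PPA2, JMJD6 and UQCRC1 (0.05 to 0.09 log2 units away). The nearest to PGS1 were ATP5J2, SLC31A1 and DLD (0.03 to 0.04), and the nearest to CRLS1 were AASDHPPT, AIFM1 and ALG11 (0.04 to 0.09). These distances are smaller than the SD over the guides of any of these genes, and they rest on 3 libraries.

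**Figure D3:**
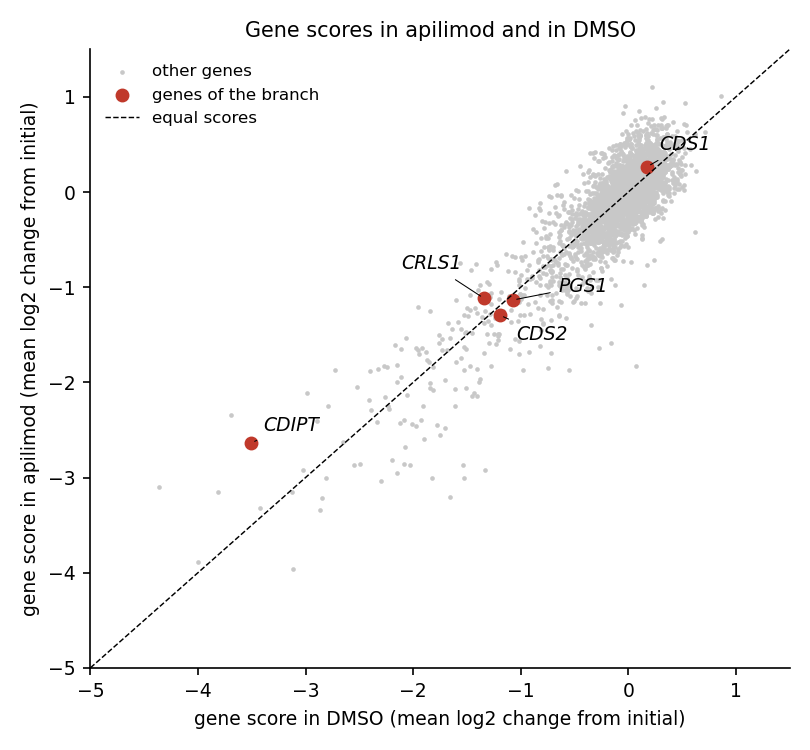
Score of each of the 2969 genes in apilimod (y axis) against its score in DMSO (x axis), as mean log2 change from the shared initial library. The 5 genes of the branch are in red and the dashed line marks equal scores; CDS1 lies among the bulk of the genes, CDS2, PGS1 and CRLS1 near -1 on both axes, and CDIPT at -3.51 in DMSO and -2.64 in apilimod.

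To set apilimod against DMSO, guide changes were scaled in each library so that the control median was 0 and the median of 23 nucleotide synthesis genes was -1, and the differences were tested as above. No gene of the branch was called lower or higher, where 1.18% of all genes were lower and 0.0337% higher. At an unadjusted p under 0.05 the count was 371 over all genes and 0 in the branch. On the unscaled log2 ratio of apilimod over DMSO, CDS2 was at -0.10 ± 0.72 (9 guides), CDS1 at 0.09 ± 0.74, CDIPT at 0.87 ± 2.53, PGS1 at -0.06 ± 0.64 and CRLS1 at 0.22 ± 1.01 (SD over guides, 10 each). Adjusted p by the exact rank-sum test on the scaled differences was 0.755 for CDS2, 0.756 for CDS1, 0.849 for CDIPT, 0.916 for PGS1 and 0.871 for CRLS1. Of the 49 scored guides, 26 lay below the control median of this ratio and 23 above, and 40 lay within the central 95% of the control guides (-0.73 to 2.59). Of the 9 outside, 7 were below it (3 CDS2, 2 CRLS1, 1 CDIPT and 1 PGS1 guide) and 2 CDIPT guides were above. The band reached much further above the control median than below it, so the 2 sides cannot be compared by these counts. Control guides with 100 to under 200 initial counts had a higher median ratio than those with at least 500. The share of all guides against genes outside the band was not counted. With SDs over guides of 0.64 to 2.53, these values do not show that the guides behaved alike in apilimod and DMSO.

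CDIPT had the largest mean difference of the 5 genes, and it came from 2 guides. Its z over all genes was 3.23, at rank 2966 of 2969 from the lowest, while its guides divided evenly, with 5 below the control median and 5 above, and the median ratio was -0.04. Guide 2 (92 counts in apilimod, 0 in DMSO) and guide 4 (21 and 0) stood at log2 ratios of 6.58 and 4.50, or at least 31.5-fold and at least 7.19-fold higher in apilimod at the floor of 3 counts. The other 8 guides ran from -0.90 to 0.06. Without the 3 guides at 0 in either library, the z of CDIPT was -1.18 (7 guides; exact rank-sum test, adjusted p = 0.381). The 5 CDIPT guides with at least 500 initial counts averaged -0.28 on this ratio, and the 5 with fewer averaged 2.02.

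Guide ratios of the cardiolipin genes were spread on both sides. Among CRLS1 guides, 4 and 6 were at 1.48 and 1.47, and 3 and 9 at -1.36 and -1.12. Among PGS1 guides, 3 was lowest at -1.44 and 7 highest at 0.80. The CDS2 guides ran from -1.01 to 1.30. CDS1 guide 3, at 1.85, was the highest outside CDIPT.

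**Figure D4:**
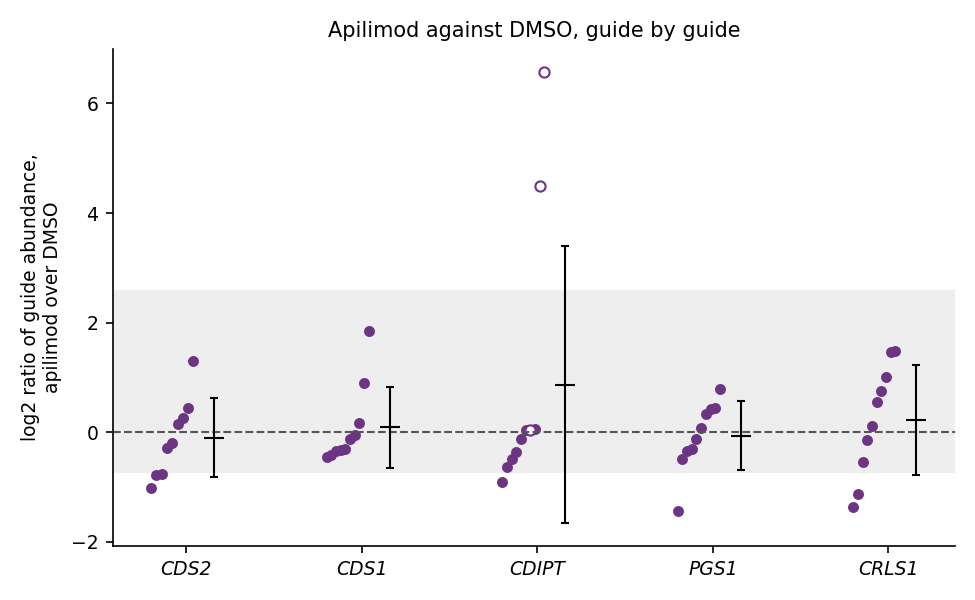
Log2 ratio of each scored guide in apilimod over DMSO (y axis) by gene, with open circles for guides at 0 counts in either library. Black bars are the mean and SD over guides, the dashed line and grey band are the median and central 95% of the control guides, and CDIPT guides 2 and 4, at 6.58 and 4.50, are the only points above the band.

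Upstream of the branch, the share of phosphatidic acid supply genes called lower was below the all-gene share of 29.0% in apilimod and near that of 18.9% in DMSO. Of 25 such genes scored, 4 were lower and 0 higher in apilimod, and 4 were lower and 2 higher in DMSO, with median scores of 0.13 in apilimod and 0.01 in DMSO. AGPAT2, an acyltransferase that makes phosphatidic acid, scored -1.55 ± 0.68 in apilimod and -1.21 ± 1.08 in DMSO (SD over 10 guides; both called). AGPAT1 scored -0.44 ± 1.02 and -0.73 ± 0.75, and was called in both. Of 6 genes that turn phosphatidic acid to diacylglycerol, the competing route, 0 were called in apilimod and 1 was lower in DMSO, the lipin LPIN1, at -0.16 ± 0.83 in apilimod and -0.68 ± 0.53 in DMSO (SD over 8 guides).

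CTP and inositol are the other substrates. Of 6 genes of CTP supply, 5 were lower in apilimod (29.0% of all genes) and 4 in DMSO (18.9% of all genes), with none higher. CAD, the first enzyme of pyrimidine synthesis, scored -3.10 ± 2.64 in apilimod and -4.36 ± 2.71 in DMSO (SD over 10 guides), and UMPS, which makes UMP, -2.11 ± 1.67 and -2.99 ± 2.51 (8 guides). These genes also feed nucleic acid synthesis, and several of them are in the nucleotide list used for scaling, of which 19 of 23 were lower in each library. Against 29.0% of all genes lower in apilimod and 18.9% in DMSO, 1 of 7 genes of inositol supply was lower in each library, with none higher. It was ISYNA1, the inositol 3-phosphate synthase, at -0.75 ± 0.56 in apilimod and -0.39 ± 0.46 in DMSO (SD over 9 guides).

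Downstream of CDIPT, 8 of 21 phosphoinositide kinase genes were lower in apilimod and 6 in DMSO, with none higher. Of all genes tested, 29.0% were lower in apilimod and 18.9% in DMSO. The median scores of the 21 were -0.02 in apilimod and -0.08 in DMSO, against -0.04 and -0.03 over all genes. PI4KA, the kinase that makes phosphatidylinositol 4-phosphate at the plasma membrane, scored -1.87 ± 1.03 in apilimod and -0.98 ± 0.66 in DMSO (SD over 9 guides). PIK3C3, the kinase that makes phosphatidylinositol 3-phosphate, scored -1.66 ± 1.61 in apilimod and -1.69 ± 1.09 in DMSO (10 guides). PIKFYVE itself scored -0.13 ± 0.33 in apilimod, where it was called lower, and 0.08 ± 0.43 in DMSO, where it was not (SD over 9 guides; exact rank-sum test, adjusted p = 0.0482 and 0.911). In apilimod the control guides had a median change of 0.22, while the median gene score was -0.04, near that of PIKFYVE. None of the 21 was called between apilimod and DMSO, PIKFYVE included (adjusted p = 0.449, exact rank-sum test). Over all genes, 1.18% were called lower and 0.0337% higher in that comparison.

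Of 14 phosphoinositide phosphatase genes, 7 were lower in apilimod (29.0% of all genes) and 2 in DMSO (18.9% of all genes), with none higher. INPP5E, a 5-phosphatase of the primary cilium, was the single gene of this group called between apilimod and DMSO. Its unscaled log2 ratio was -0.45 ± 0.35 (SD over 10 guides), with an adjusted p of 0.0434 by the exact rank-sum test on the scaled difference. Over all genes, 1.18% were called lower in that comparison. Phosphatidylinositol is also the base on which the GPI anchor is built. Of 20 genes of that pathway, 10 were lower in apilimod (29.0% of all genes) and 5 in DMSO (18.9% of all genes), with none higher. The lowest score was that of PIGQ, at -0.89 ± 1.15 in apilimod and -0.90 ± 0.89 in DMSO (SD over 9 guides).

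Of the 8 genes that remodel these lipids, 2 were lower in each library and none higher. Over all genes, 29.0% were lower in apilimod and 18.9% in DMSO. PLA2G6, a calcium-independent phospholipase, was lower in both, at -0.995 ± 1.44 in apilimod and -0.75 ± 1.08 in DMSO. PLD6, a mitochondrial phospholipase D family member, was lower in apilimod (-0.33 ± 0.65, against -0.02 ± 0.58 in DMSO), and LCLAT1, a lysocardiolipin acyltransferase, was lower in DMSO (0.02 ± 0.39 in apilimod, -0.19 ± 0.37 in DMSO; SD over 10 guides for all 3). MBOAT7, HADHA, HADHB, PNPLA8 and PLA2G4A were not called in any comparison.

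Genes of the respiratory complexes that cardiolipin binds were described in the same way, and no test set them against other lists. Of 37 complex I genes, 29 were lower in apilimod, where 29.0% of all genes were, and 25 in DMSO, where 18.9% of all genes were, with median scores of -0.81 and -0.58. Of 32 genes of complexes III and IV, 22 were lower in apilimod and 21 in DMSO, with medians of -0.91 and -0.75. PGS1 and CRLS1, between -1.34 and -1.08 in the 2 libraries, lay below those medians. Of 28 N-glycosylation genes, a second scaling list, 25 were lower in apilimod and 20 in DMSO. In apilimod against DMSO 2 of them were lower, where 1.18% of all genes were.

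The other major phospholipids gave a comparison with like routes. Of 13 genes for phosphatidylcholine, phosphatidylethanolamine and phosphatidylserine synthesis, 8 were lower in apilimod and 5 in DMSO, with none higher and none called between apilimod and DMSO. Over all genes, 29.0% were lower in apilimod, 18.9% in DMSO and 1.18% in apilimod against DMSO. PCYT1A, the rate-limiting enzyme of phosphatidylcholine synthesis, scored -2.93 ± 3.36 in apilimod and -1.33 ± 1.03 in DMSO (SD over 9 guides). PISD, the mitochondrial phosphatidylserine decarboxylase, scored -2.81 ± 2.70 in apilimod and -2.20 ± 2.61 in DMSO, and PTDSS1, a phosphatidylserine synthase, -1.13 ± 0.92 and -1.001 ± 0.86 (10 guides each). In DMSO CDIPT lay below the lowest of these 13 genes, and in apilimod PCYT1A and PISD lay below CDIPT. The order in DMSO rested on CDIPT guides at 0 counts. Without them CDIPT was at -1.48 in DMSO, above the -2.20 of PISD over all its scored guides.

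**Figure D5:**
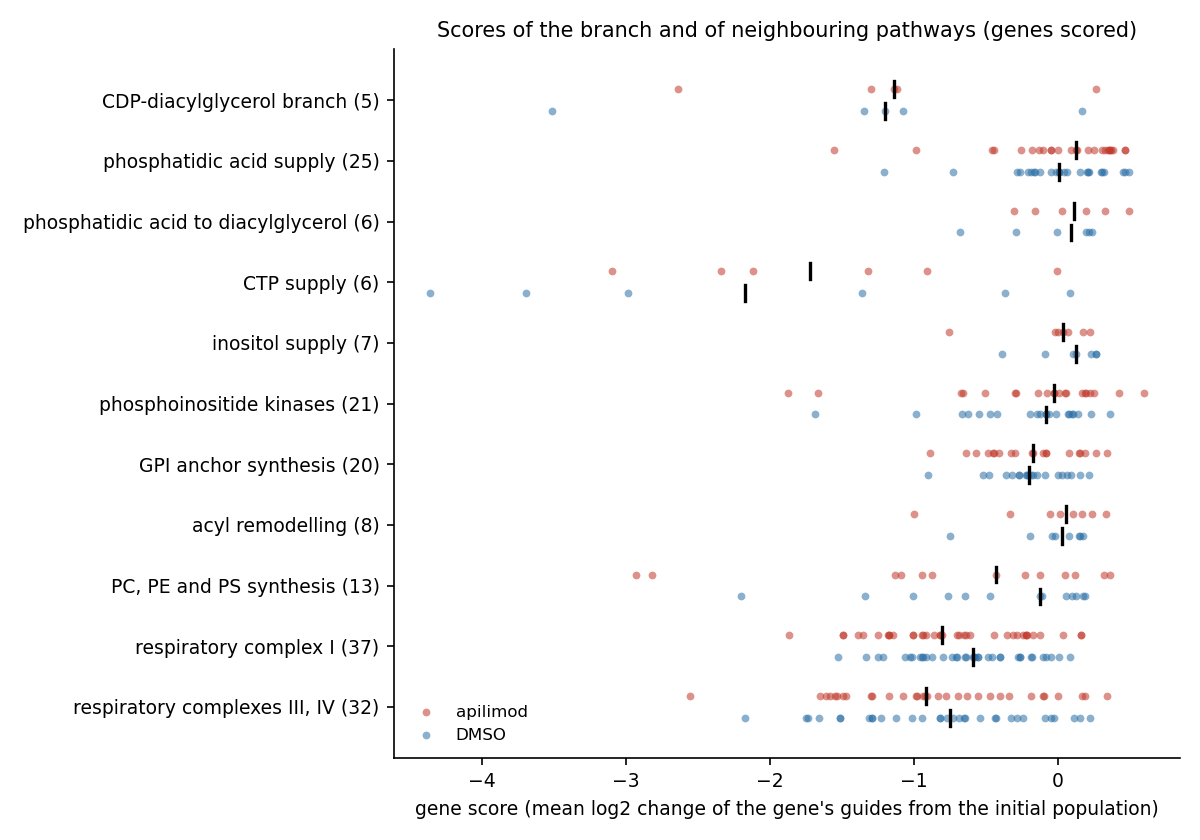
Score of each gene (mean log2 change from the initial population, x axis) by pathway, with the number of genes scored in brackets. Red points (upper row of each pair) are apilimod, blue points are DMSO and black ticks are medians; the branch medians of -1.14 and -1.20 lie below those of the other lists drawn except CTP supply.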

How the data were processed

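Guide counts from genomic DNA of 3 libraries (apilimod, DMSO, initial population) were used as the authors deposited them: whole-number raw counts per guide, not normalized, with no molecular identifiers, so that reads are PCR copies. The submitters' processing notes name bcl2fastq, cutadapt 4.1, Bowtie2 2.4.5 and MAGeCK 0.5.9.5. The series table and the per-library tables held the same counts (0 differences). From 30197 guides, 1630 with under 100 initial counts were left out, as were genes with under 6 guides left (9 genes), leaving 28042 guides against 2969 genes and 487 of 499 controls. Scores, with a pseudocount of 1, were computed with Python 3.11.15, numpy 2.4.6, pandas 2.3.3 and scipy 1.17.1, and the scripts were tested on simulated data. Rank-sum tests were exact and two-sided, with Benjamini-Hochberg adjustment over all genes.

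The genes, lists and tests were chosen with earlier results of these data known. Named genes were all 5 genes of the branch, PIKFYVE, the remodelling genes, the 3 nearest genes to each depleted gene, and from each other list at most 3 called genes with the largest scores per comparison; a gene that this rule picks is not reported here. Alternatives changed the count minimum, pseudocount, summary over guides, null guides, normalization, scaling and reference list. Those on counts of 0 were chosen after seeing the data. With 1 library per group, no replicate error could be had.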

Additional observations from a re-analysis of the deposited data

How the results depend on the processing

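CDS2, CDIPT, PGS1 and CRLS1 were lower in each 14-day library under all 11 alternatives, CDS1 was called under none, and no gene of the branch was called between apilimod and DMSO under any of 14. The median over guides and the control guide normalization left the guide ranks against the initial population unchanged. Those settings could therefore not alter a call in either 14-day library. The normalization could not alter a call between apilimod and DMSO either. The highest adjusted p among the depleted genes was 0.0324 (PGS1 in apilimod, all other guides as the null; rank-sum test). The CDIPT score ranged from -2.86 to -1.82 in apilimod and from -3.65 to -1.48 in DMSO, the highest in each without the guides at 0.

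The side of the control median, or the sign of z, changed only for values that were not called. CDIPT had a z of -1.18 without guides at 0 counts. CDS1 was at 0.055 in DMSO with a minimum of 300 counts, 0.14 without its lowest and highest guide and 0.12 as a median over guides, and at 0.20 in apilimod as a median. Its z was -0.079 without those 2 guides, -0.80 as a median, -0.0080 with N-glycosylation genes as reference and -0.084 with complex I genes. For CDS2 the z was 0.015 with a minimum of 30, 1.42 with none, 0.047 with 300, 0.80 with N-glycosylation and 0.99 with complex I. For PGS1 it was 0.091 with a minimum of 30, 0.055 with none, 0.85 as a median, 0.79 with N-glycosylation and 0.96 with complex I. The cause was not tested.

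Counts over all genes moved more. Tested against all other guides in place of controls, apilimod had 225 genes lower and 82 higher (862 and 7 against control guides), and DMSO 222 and 50 (560 and 25). Genes higher in apilimod numbered 12 to 14 with no minimum, a minimum of 300, the lowest and highest guides left out or controls of at least 200 counts. Genes lower between apilimod and DMSO numbered 35, against 22 with a minimum of 30, with none or without guides at 0, 19 with 300, 53 with a pseudocount of 10, 20 with medians and 10 with all other guides as the null. Lower and higher were 9 and 6 with the N-glycosylation reference and 9 and 17 with complex I, against 35 and 1, and 2 genes were higher with a minimum of 30 or none, medians, all other guides as the null or controls of at least 200 counts. No paired analysis was possible because each group was 1 library. Depth limited the CDIPT guides at 0, for which 3 counts is an upper limit of 0.117 CPM in apilimod and 0.114 in DMSO.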
